A study of Mus musculus with 11 samples.

Results

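Regulated exocytosis is the step by which a secretory cell releases stored transmitter or hormone when calcium enters. In the adrenal gland it is the work of chromaffin cells of the medulla, which hold catecholamines in dense-core granules and empty them into the blood on a signal from the splanchnic nerve. A vesicle SNARE protein pairs with SNARE proteins of the plasma membrane, accessory proteins hold the pair ready, and a synaptotagmin that binds calcium triggers the fusion of granule and membrane.

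The RNA of 9 genes of this machinery was followed in adrenals of mINDY-KO and WT mice: the SNAREs Snap25, Stx1a and Vamp2, the synaptotagmins Syt1 and Syt4, and their partners Cplx2, Cadps, Sv2a and Rab3a. Every probe whose platform gene symbol was one of these names was taken, which gave 10 of the 25697 probes, with a pair of probes for Sv2a and a single probe for each other gene. The series names 16593 genes in all. mINDY-KO mice were homozygous for the deleted Slc13a5 allele, which encodes the citrate transporter mINDY. The deletion was made with an Hprt1-Cre transgene, so that it was not limited to the adrenal, and the line was then backcrossed to C57B/6J. WT mice were littermates. The 5 mINDY-KO and 5 WT mice were males of 12 to 16 weeks on standard chow, and total RNA came from adrenals. Markers of medulla and cortex were both present: 12 of 14 chromaffin and 10 of 11 adrenocortical markers on the array were above background, with the vesicular monoamine transporter Slc18a1 among the chromaffin markers that were not.

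RNA was hybridized to Illumina bead arrays, which read a single colour and give each probe a signal and a detection p, the chance of such a signal from background. WT replicate 1 was run on 2 arrays, which were averaged and counted as 1 mouse. Median signals were 122 to 238 on mINDY-KO arrays and 150 to 202 on WT arrays, and mINDY-KO replicates 3 and 4 had the lowest. A level below is the log signal relative to the mean of its array, divided by the SD of that array and multiplied by 1.57. The SD of log2 signals was 1.44 to 1.67 on single arrays, so that a difference of 1 is about a doubling, not exactly. Levels of different probes are not set against each other. Tests were run on the 13341 probes that reached a detection p under 0.05 in 5 or more mice. The probe of the deleted gene, Slc13a5, was not above background on any array (detection p 0.0714 to 0.357), so the array does not check the genotypes.

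Stx1a and Rab3a are shown by their promoters. Stx1a had the smallest p of the members with a lower mean level in mINDY-KO adrenals. Rab3a had a slightly higher mean (log2 fold change 0.06, adjusted p = 0.854, limma), and no window was at hand for Vamp2, the other member with a higher mean. The windows run from 250 bases before to 50 bases after the annotated start (RefSeq, GRCm38.p6). Capitals mark the half-site of the cyclic AMP response element, TGACG, and the GC box, GGGCGG, searched on both strands, where they read CGTCA and CCGCCC on the other strand.
Stx1a, chr5:135023232-135023531, plus strand: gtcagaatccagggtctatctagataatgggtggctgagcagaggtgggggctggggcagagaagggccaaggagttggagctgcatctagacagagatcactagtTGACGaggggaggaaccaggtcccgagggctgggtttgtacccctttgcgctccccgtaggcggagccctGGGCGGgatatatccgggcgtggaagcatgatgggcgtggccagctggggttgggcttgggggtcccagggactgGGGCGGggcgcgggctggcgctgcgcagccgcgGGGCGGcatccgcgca
Rab3a, chr8:70754453-70754752, plus strand: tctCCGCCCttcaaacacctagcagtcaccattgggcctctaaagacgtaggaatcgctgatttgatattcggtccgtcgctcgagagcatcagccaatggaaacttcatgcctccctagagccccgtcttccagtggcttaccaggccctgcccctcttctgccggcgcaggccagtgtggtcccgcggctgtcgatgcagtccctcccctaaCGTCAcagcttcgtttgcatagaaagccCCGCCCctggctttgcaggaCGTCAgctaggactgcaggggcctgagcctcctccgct

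The Stx1a window held 1 half-site and 3 GC boxes, and the Rab3a window held 2 half-sites and 2 GC boxes. RefSeq windows were at hand for 6 of the 9 genes, 8 windows in all, with a pair of starts for Rab3a and for Syt1. The half-site was found in 2 of these 8 windows, which are the ones printed above, against 20.8% of all 32851 windows of the same 300 bases. The GC box was found in 4 of the 8, against 35.7% of all windows. The windows of Cadps and Cplx2 and the other Rab3a and Syt1 windows held neither motif, and those of Sv2a and Syt1 that held a motif had 1 GC box each. A match is a run of letters and was not tested as a binding site.

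No member passed the test between genotypes. Of the 10 probes, 9 for 8 genes were above background and were tested, and 0 of them had an adjusted p under 0.05 (limma, Benjamini-Hochberg over 13341 probes), with adjusted p from 0.324 to 0.854. Over all probes, 2 passed, or 0.0150%. Mean levels were lower in mINDY-KO adrenals for 7 of the 9 probes, those of Stx1a, Syt4, Cplx2, Syt1, Cadps and both of Sv2a, against 55.9% of all probes, and were higher for Vamp2 and Rab3a, against 44.1% of all probes. At an unadjusted p under 0.05, 3 of the 9 probes were lower (Stx1a, Syt4 and Cplx2) and 0 were higher, whereas 6.65% of all probes were lower and 4.29% higher at that limit. The count of 3 became 6 when WT replicate 3 was left out, 1 when WT replicate 1 or mINDY-KO replicate 4 was left out, and 0 when mINDY-KO replicates 3 and 4 were left out together. The median log2 fold change over the 8 genes, with the brighter Sv2a probe, was -0.16, against -0.02 over all tested probes. The genotypes overlapped for each of the 9 probes. Such overlap was the rule, since the highest mINDY-KO mouse was below the lowest WT mouse for only 1.32% of all probes. The share of probes with every mINDY-KO mouse above every WT mouse was not counted.

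**Figure D1:**
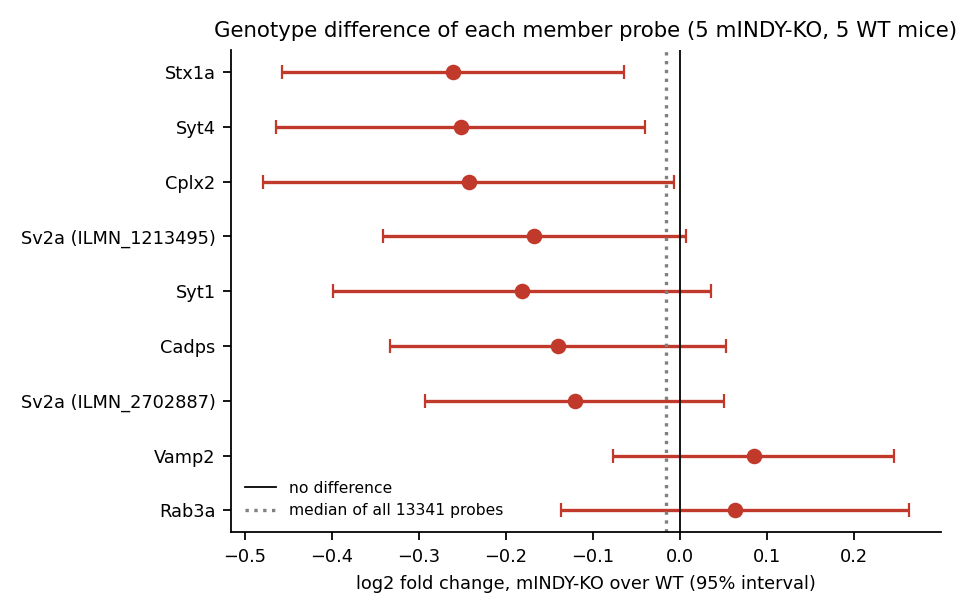
log2 fold change of each member probe, mINDY-KO over WT (x axis), with its 95% interval from limma. Points run from -0.26 for Stx1a at the top to 0.08 for Vamp2 and 0.06 for Rab3a at the bottom, and the intervals of Stx1a, Syt4 and Cplx2 lie below 0 before adjustment.

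Whole adrenals were measured, so that fewer chromaffin cells and less RNA per chromaffin cell cannot be told apart in these values. The mean level of 12 measured chromaffin granule and catecholamine markers ranged from 2.95 to 3.31 in mINDY-KO mice (mean 3.13 ± 0.15, SD, n = 5) and from 3.08 to 3.57 in WT mice (mean 3.29 ± 0.19, SD, n = 5). Of these 12 genes, 11 had lower means in mINDY-KO mice, against 55.9% of all probes. In the adjusted test 0 of them passed, against 0.0150% of all probes. With each mouse's marker mean as a covariate, the median over the member genes was -0.09 in place of -0.16. The mean of 10 adrenocortical markers was 3.27 to 3.61 in mINDY-KO mice and 3.36 to 3.54 in WT mice. Of these genes 6 were higher and 4 lower, beside 44.1% and 55.9% of all probes. The 4 cortical genes of smallest p were Scarb1 at -0.41, Mc2r at 0.22, Hsd3b1 at 0.25 and Star at 0.16 (log2 fold change, adjusted p from 0.321 to 0.647, limma). The chromaffin markers include Th, Ddc, Dbh and Pnmt, whose RNA the paper reports as lower in mINDY-KO adrenals by RT-PCR, in more mice than here. On these arrays their means were also lower, at -0.11, -0.35, -0.08 and -0.21 (log2 fold change), with 0 past the adjusted test. The covariate can thus carry the genotype difference itself and cannot separate cell number from RNA per cell. The part of cell composition in the member values was not tested.

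Stx1a, the plasma membrane SNARE syntaxin 1A, had the smallest p of the members. Its levels were 1.33, 1.45, 1.11, 1.21 and 1.25 in mINDY-KO replicates 1 to 5, against 1.71, 1.63, 1.30, 1.61 and 1.41 in WT replicates 1 to 5. WT replicates 1, 2 and 4 stood above every mINDY-KO mouse, and the groups overlapped through WT replicates 3 and 5 and mINDY-KO replicates 1 and 2. The log2 fold change was -0.26 (standard error 0.092, 95% interval -0.46 to -0.06, adjusted p = 0.324, limma), or about 0.835 of the WT level. All 5 mINDY-KO mice were below the WT mean. With the chromaffin marker mean as a covariate the value was -0.25, and without mINDY-KO replicates 3 and 4 it was -0.19.

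Snap25, the other plasma membrane SNARE of the fusion complex, could not be followed. Its probe gave signals of 97 to 164 on mINDY-KO arrays and 119 to 161 on WT arrays, with detection p from 0.396 to 0.965 and from 0.328 to 0.972. It was not above background on any array, and each signal lay below the median of its array, at 0.689 to 0.809 times that median on mINDY-KO arrays and 0.718 to 0.820 times on WT arrays. No fold change is given for it. This holds for a single probe and says nothing of other parts of the Snap25 transcript.

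Vamp2, or synaptobrevin 2, the SNARE on the granule, did not share the lower means of Stx1a. Its levels were 2.66, 2.84, 2.80, 2.76 and 2.83 in mINDY-KO mice, against 2.61, 2.58, 2.88, 2.75 and 2.64 in WT mice. The highest value of all was that of WT replicate 3, and the groups overlapped over most of their range. Its log2 fold change was 0.08 (standard error 0.075, 95% interval -0.08 to 0.25, adjusted p = 0.726, limma). It was 0.13 without WT replicate 3, 0.06 without WT replicate 2 and 0.05 with the chromaffin marker mean as a covariate.

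**Figure D2:**
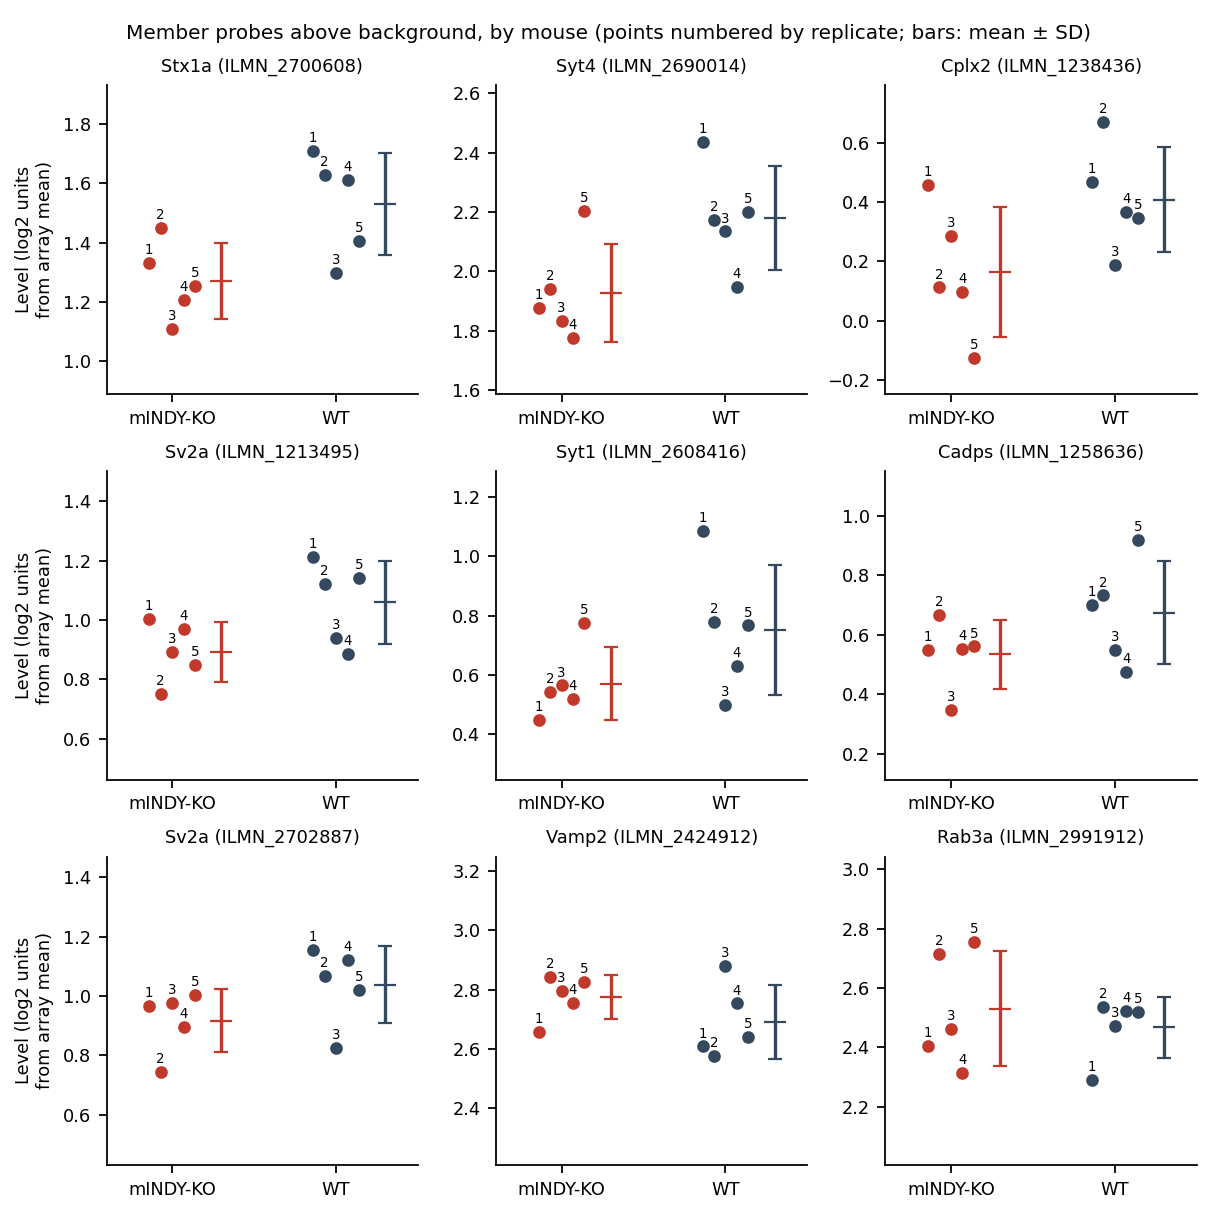
Levels of the 9 member probes above background in log2 units from the array mean (y axis; each panel spans the same height), with 1 point per mouse numbered by replicate and bars for mean ± SD (n = 5). Stx1a, Syt4 and Cplx2 in the top row have most mINDY-KO points below most WT points, while the groups overlap in every panel.

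Some synaptotagmins are calcium sensors of the granule. Syt4, an atypical synaptotagmin found on dense-core vesicles, was at 1.88, 1.94, 1.83, 1.78 and 2.20 in mINDY-KO mice, against 2.44, 2.17, 2.13, 1.95 and 2.20 in WT mice. In 4 of the 5 mINDY-KO mice it was below every WT mouse, and mINDY-KO replicate 5 stood apart from these at the level of WT replicate 5. This was a log2 fold change of -0.25 (standard error 0.099, 95% interval -0.46 to -0.04, adjusted p = 0.380, limma), and -0.14 with the chromaffin marker mean as a covariate.

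Syt1, the sensor of fast synchronous release, was at 0.45, 0.54, 0.57, 0.52 and 0.78 in mINDY-KO mice, against 1.09, 0.78, 0.50, 0.63 and 0.77 in WT mice. In 4 of the 5 mINDY-KO mice it lay within the WT range, mINDY-KO replicate 1 was below every WT mouse, and WT replicate 1 was the highest. For Syt1 the log2 difference was -0.18 (standard error 0.102, 95% interval -0.40 to 0.04, adjusted p = 0.553, limma). It was -0.10 without WT replicate 1 and -0.05 with the chromaffin marker mean as a covariate.

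Cplx2, or complexin 2, binds assembled SNARE complexes and holds them until calcium enters. It was at 0.46, 0.11, 0.29, 0.10 and -0.12 in mINDY-KO mice, against 0.47, 0.67, 0.19, 0.37 and 0.35 in WT mice. mINDY-KO replicate 1 was as high as WT replicate 1, and 3 mINDY-KO mice were below every WT mouse. Cplx2 had the widest spread of the members in mINDY-KO mice, with means of 0.17 ± 0.22 in mINDY-KO and 0.41 ± 0.18 in WT mice (SD, n = 5 each). The log2 fold change was -0.24 (standard error 0.110, 95% interval -0.48 to -0.01, adjusted p = 0.447, limma), and -0.25 with the chromaffin marker mean as a covariate.

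Cadps, known as CAPS, primes dense-core vesicles for fusion. It was at 0.55, 0.67, 0.35, 0.55 and 0.56 in mINDY-KO mice, against 0.70, 0.73, 0.55, 0.47 and 0.92 in WT mice. The groups overlapped, with mINDY-KO replicate 3 lowest and WT replicate 5 highest. Its log2 fold change was -0.14 (standard error 0.090, 95% interval -0.33 to 0.05, adjusted p = 0.616, limma), -0.09 without mINDY-KO replicate 3, -0.08 without WT replicate 5 and also -0.08 when mINDY-KO replicates 3 and 4 were left out.

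Sv2a is a glycoprotein of the vesicle membrane and the binding site of the antiepileptic drug levetiracetam. By its probe ILMN_1213495 it was at 1.00, 0.75, 0.89, 0.97 and 0.85 in mINDY-KO mice, against 1.21, 1.12, 0.94, 0.89 and 1.14 in WT mice. By its probe ILMN_2702887 it was at 0.97, 0.74, 0.98, 0.90 and 1.00 in mINDY-KO mice, against 1.16, 1.07, 0.83, 1.12 and 1.02 in WT mice. Both probes had mINDY-KO replicate 2 lowest and the averaged WT replicate 1 highest, and all 5 mINDY-KO mice below the WT mean. The first and repeat arrays of WT replicate 1 gave 1.34 and 1.09 for ILMN_1213495, and 1.05 and 1.26 for ILMN_2702887. These gaps were larger than the genotype differences, and the rank of this mouse depends on the array. The probes were only partly alike over the 10 mice (r = 0.63, rho = 0.49, given as a description). The log2 fold changes were -0.17 (standard error 0.082, adjusted p = 0.477) and -0.12 (standard error 0.080, adjusted p = 0.624, limma for both). With the chromaffin marker mean as a covariate they were -0.09 and -0.06, and the value of ILMN_2702887 was -0.08 without mINDY-KO replicate 2.

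Rab3a is a small GTPase that rides on secretory vesicles and recruits docking factors. It was at 2.41, 2.72, 2.46, 2.31 and 2.76 in mINDY-KO mice, against 2.29, 2.54, 2.47, 2.52 and 2.52 in WT mice. mINDY-KO replicates 2 and 5 were above every WT mouse, the other mINDY-KO mice were below the WT mean, and WT replicate 1 stood below the other WT mice. The log2 fold change was 0.06 (standard error 0.093, 95% interval -0.14 to 0.26, adjusted p = 0.854, limma). It was 0.01 without mINDY-KO replicate 5, 0.02 without mINDY-KO replicate 2, without WT replicate 1 or with the chromaffin covariate, 0.12 when mINDY-KO replicate 4 was left out and 0.16 when replicates 3 and 4 of that group were.

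The members did not all vary together between mice. Of 28 pairs of member genes compared over the 10 mice, Syt1 and Syt4 were the closest (Pearson r = 0.86, permutation p = 0.0034, adjusted p = 0.0574 over the 28 pairs; Spearman rho = 0.76, permutation p = 0.0151, adjusted p = 0.106). Without WT replicates 1 and 2, the mice farthest from the median of Syt1, r was 0.69, and with each genotype's mean removed it was 0.81. Cplx2 and Vamp2 ran opposite to each other (r = -0.81, permutation p = 0.0041, adjusted p = 0.0574; rho = -0.82, permutation p = 0.0061, adjusted p = 0.0997), with r = -0.77 without mINDY-KO replicate 5 and WT replicate 2 and r = -0.76 within genotypes. No pair passed an adjusted p of 0.05. Values of a mouse share an array and its scaling.

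**Figure D3:**
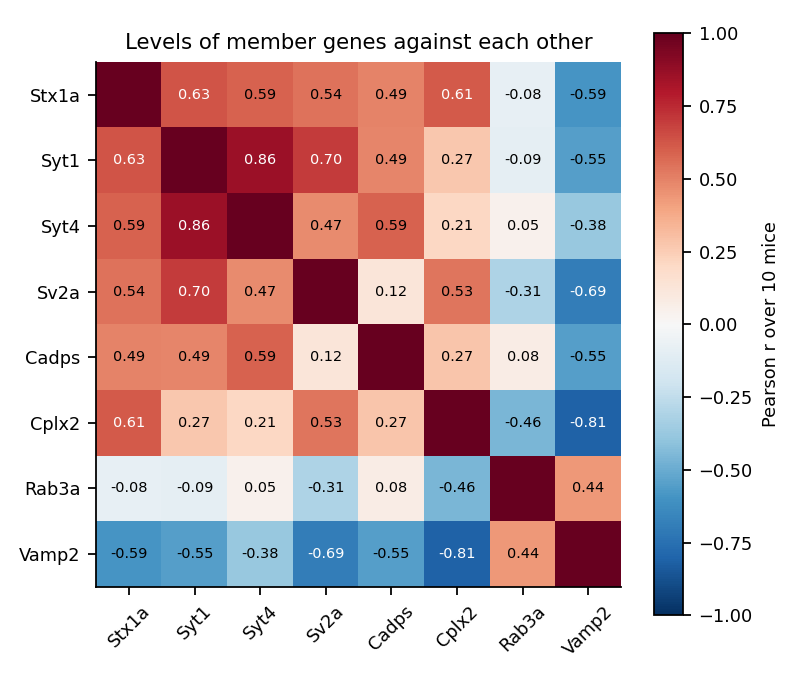
Pearson r between levels of the member genes over 10 mice (both axes list genes; colour and printed number give r). Syt1 and Syt4 share the highest value, 0.86, and Vamp2 is negative against each gene but Rab3a, down to -0.81 against Cplx2.

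Each member gene was set against the mean of the chromaffin markers over the 10 mice. Syt1 followed the mean of the 12 markers (r = 0.88, permutation p = 0.0028, adjusted p = 0.0227 over 8 genes; rho = 0.81, permutation p = 0.0075, adjusted p = 0.0597), with r = 0.70 among mINDY-KO mice and 0.92 among WT mice. Without WT replicate 1 and mINDY-KO replicate 2, the mice farthest from the median of the marker mean, r was 0.80. Syt4 gave r = 0.77 (permutation p = 0.0104, adjusted p = 0.0418; rho = 0.65, permutation p = 0.0474, adjusted p = 0.131), with 0.38 among mINDY-KO mice, 0.95 among WT mice and 0.64 without the same pair of mice. Stx1a (r = 0.36, permutation p = 0.310, adjusted p = 0.371; rho = 0.22, permutation p = 0.533, adjusted p = 0.609) gave -0.72 among mINDY-KO mice and 0.54 among WT mice. Cplx2 (r = 0.24, permutation p = 0.505, adjusted p = 0.505; rho = 0.25, permutation p = 0.490, adjusted p = 0.609) gave -0.57 among mINDY-KO mice and 0.52 among WT mice. For Sv2a r was 0.65 (permutation p = 0.0362, adjusted p = 0.0966; rho = 0.65, permutation p = 0.0492, adjusted p = 0.131), and 0.12 without the same pair of mice. The other genes, Vamp2 (r = -0.53), Cadps (r = 0.36) and Rab3a (r = -0.34), had adjusted p of 0.232 to 0.371 for r. The permutations ran over all 10 mice without regard to genotype, so these p also carry the genotype difference. With each genotype's mean removed, r was 0.84 for Syt1, 0.71 for Syt4, 0.55 for Sv2a and 0.19 for Cadps. It was 0.08 for Stx1a, -0.02 for Cplx2, -0.28 for Rab3a and -0.42 for Vamp2. Whether these correlations differ from each other was not tested.

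**Figure D4:**
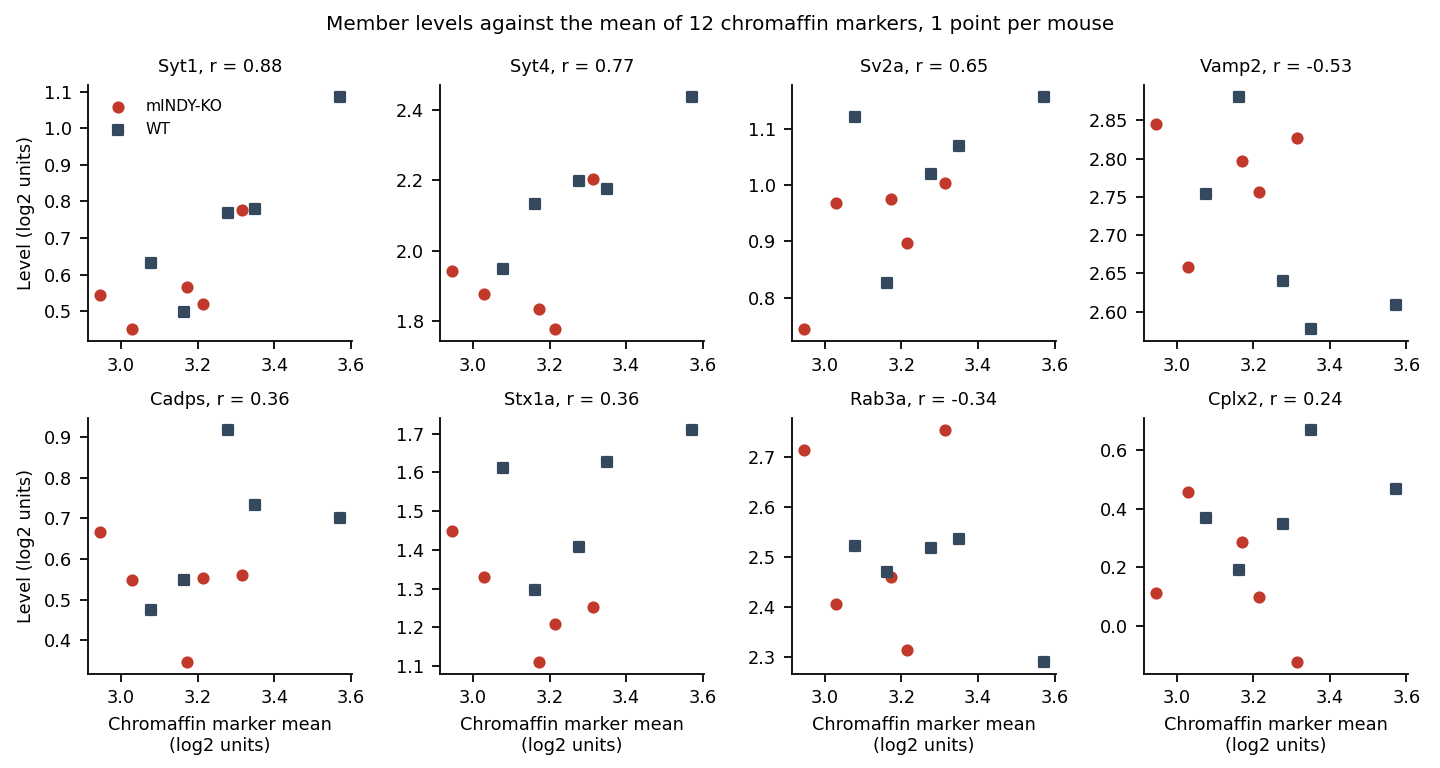
Level of each member gene (y axis, log2 units) against the mean level of 12 chromaffin markers (x axis, log2 units), 1 point per mouse, circles for mINDY-KO and squares for WT. Syt1 (r = 0.88) and Syt4 (r = 0.77) lie along a rising line, while at like marker means most mINDY-KO points of Stx1a (r = 0.36) lie below the WT points.

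By pattern, the genes most like the mean of the standardised member levels were Hdac6, a cytoplasmic deacetylase (r = 0.95 over the 10 mice), Gemin4 of the SMN complex (r = 0.94), the ubiquitin-conjugating enzyme Ube2o (r = 0.93), the F-box protein Skp2 of a ubiquitin ligase (r = 0.93), and Synrg, a partner of the clathrin adaptor AP-1 (r = 0.92). These were the highest of 9294 genes, with r of 0.84 to 0.91 within genotypes, and are given as a description.

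Among the wider secretory genes, none of 6 lists held a gene past the adjusted test. Proteins of SNARE assembly and recycling bring SNAREs together and take the complexes apart after fusion. Of 11 measured genes of this kind, 8 were lower, beside 55.9% of all probes, and 3 higher, with a median log2 fold change of -0.10. The ATPase Nsf was at -0.17 (standard error 0.077, adjusted p = 0.432, limma), and its adaptors Napa and Napg were both at -0.18 (adjusted p = 0.419 and 0.466). Snapin, a SNAP25-binding protein, was at 0.15 (adjusted p = 0.558).

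Of the other SNAREs, 13 of 17 measured genes had higher means, beside 44.1% of all probes, with a median of 0.04 and 0 genes past the adjusted test. The 4 with the smallest p serve endosomes: Vti1b was at 0.36 (adjusted p = 0.248), Vamp8 at 0.22 (adjusted p = 0.322), Stx8 at 0.28 (adjusted p = 0.466) and Stx12 at -0.22 (adjusted p = 0.429, limma for all). Vti1b was at 3.72, 3.89, 4.18, 3.82 and 3.78 in mINDY-KO mice, against 3.16, 3.59, 3.74, 3.57 and 3.53 in WT mice, which overlapped only through WT replicate 3 and mINDY-KO replicate 1.

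Of 13 other vesicle membrane proteins, 10 were lower, beside 55.9% of all probes, with a median of -0.06. Synapsins tether vesicles to the cytoskeleton, and Syn2 had the largest difference here. Syn2 was at 0.78, 0.54, 0.34, 0.07 and 0.62 in mINDY-KO mice, against 1.06, 0.97, 1.10, 0.54 and 1.01 in WT mice. WT replicate 4 was the only WT mouse within the mINDY-KO range, and the genotypes differed in their means by -0.47 on the log2 scale (standard error 0.131, limma adjusted p = 0.223). Syn1 was at -0.24 (adjusted p = 0.380), Scamp5, a secretory carrier membrane protein, at -0.26 (adjusted p = 0.321), and Syp, or synaptophysin, at -0.16 (adjusted p = 0.527).

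Calcium enters through voltage-gated channels, for which 5 of 8 measured subunits were lower, a share near the 55.9% of all probes, with a median of -0.07. Cacna2d1, the accessory subunit that binds gabapentin, was at 2.20, 2.14, 1.99, 2.15 and 2.31 in mINDY-KO mice, against 2.87, 2.74, 2.43, 2.20 and 2.57 in WT mice. The groups overlapped through WT replicate 4, and their means differed by -0.40 on the log2 scale (standard error 0.112, limma adjusted p = 0.214). The 3 other subunits with the smallest p were Cacna1d at -0.10, Cacna1h at -0.12 and Cacna2d3 at -0.07 (adjusted p from 0.647 to 0.774).

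Of the other synaptotagmins, 10 of 14 were not above background, and the 4 measured (Syt11, Syt12, Syt5 and Syt9) lay between -0.08 and 0.06, with a median of -0.01. Rab3 and Rab27 GTPases and their partners had 6 of 10 lower, again near the 55.9% of all probes, and a median of -0.04, with Rab3b at 0.15, Rab3d at 0.10, Sytl4 at -0.10 and Rph3a, a Rab3 effector, at -0.08 (adjusted p from 0.619 to 0.753).

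**Figure D5:**
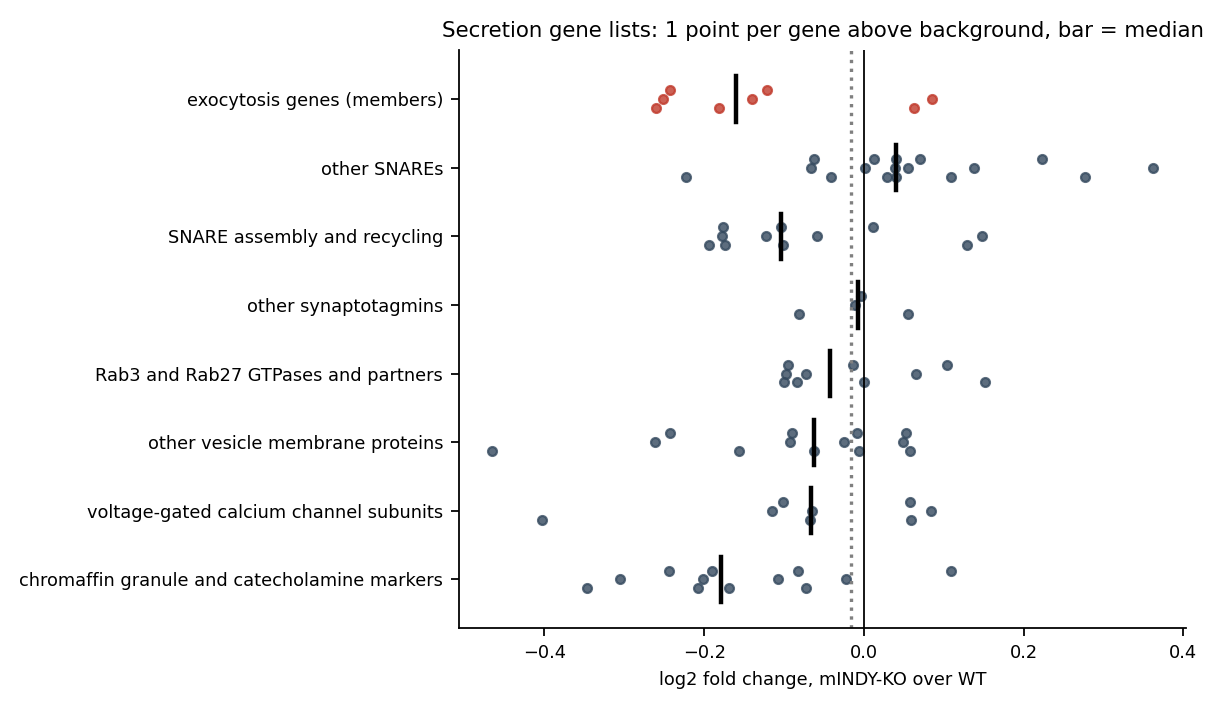
log2 fold change, mINDY-KO over WT (x axis), of each gene above background in the exocytosis members and 7 further lists (rows), with the median as a bar, 0 as a solid line and the median of all probes dotted. Bars stand at -0.16 for the members, 0.04 for other SNAREs and -0.18 for chromaffin markers, and points of each list spread to both sides of 0.

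The chromaffin markers had a median of -0.18. Ddc, or DOPA decarboxylase, had the smallest p, at -0.35 (adjusted p = 0.170, limma). Every mINDY-KO mouse was below every WT mouse for Ddc, as for 1.32% of all probes. Next came Pcsk1n at -0.30 (adjusted p = 0.299), Scg2, or secretogranin II, at -0.24 (adjusted p = 0.453) and Cyb561 at -0.17 (adjusted p = 0.567). The enzymes Th, Dbh and Pnmt were at -0.11, -0.08 and -0.21, and Chgb alone was higher, at 0.11 (adjusted p from 0.805 to 0.898, limma). RNA of other cell types was measured beside them, and no gene of these lists passed the adjusted test. Medians were -0.03 over 4 neuronal markers, 0.00 over 3 Schwann and satellite glia markers, 0.05 over 3 adipocyte markers, 0.19 over 5 macrophage markers and -0.04 over 7 endothelial markers. All 3 adipocyte and all 5 macrophage markers had higher means in mINDY-KO mice, beside 44.1% of all probes. The smallest of these differences were 0.03 for an adipocyte and 0.01 for a macrophage marker. Adipoq, or adiponectin, had the largest difference of any marker, 0.70 (standard error 0.259, 95% interval 0.15 to 1.26, adjusted p = 0.348, limma). It was at -0.18, -0.03, -0.04, -0.65 and 1.16 in mINDY-KO mice, against -0.63, -0.04, -0.91, -0.92 and -0.76 in WT mice, and the other adipocyte markers, Lep and Plin1, were at 0.05 and 0.03. The macrophage genes of smallest p were Adgre1 at 0.25, C1qb at 0.19, Lyz2 at 0.28 and C1qc at 0.12 (adjusted p from 0.504 to 0.735). The endothelial ones were Tek at -0.17, Cdh5 at -0.15, Egfl7 at 0.16 and Plvap at -0.10 (adjusted p from 0.447 to 0.614). Among neuronal markers Uchl1 was at -0.11, Stmn2 at -0.06, Nefh at -0.01 and Elavl4 at 0.00, and among glial markers Mbp was at 0.12, Cnp at -0.07 and Pmp22 at 0.00. The adipocyte mean was 0.41 in mINDY-KO replicate 5, against -0.53 to -0.19 in the other mINDY-KO mice and -0.56 to -0.17 in WT mice. That mouse had the highest Syt1, Syt4 and Rab3a of its group, but also the lowest Cplx2 (-0.12) and the highest chromaffin marker mean (3.31). The macrophage mean was 1.86 to 2.36 in mINDY-KO mice and 1.55 to 2.22 in WT mice. The part of these cells in the member values was not tested.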

How the data were processed

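Adrenal RNA of 5 mINDY-KO and 5 WT mice was read on 11 Illumina bead arrays, with WT replicate 1 repeated. The authors deposited signal intensity values on a linear scale, which GenomeStudio (2011.1, by the submitters' processing notes) had written without normalization, with a detection p-value deposited beside each signal, and the authors' Z score for each probe, which equals the array-wise standardised log10 signal within 0.0102. Groups and replicate numbers came from the sample labels. The number of sample columns not used was 0.

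The standardising of log10 signals on each array followed the methods of the study. These values were multiplied by 1.57, the mean SD of log2 signals, and averaged for the repeated mouse. The test did not follow the study, which called genes by Z ratio, ANOVA P and a looser false discovery rate limit. Its supplement also counts more WT samples than the 5 WT mice of the labels. The repeat arrays correlated with r = 0.996 over the probes tested, and differences between them had an SD of 0.14. Probes with a detection p under 0.05 in at least 5 of 10 mice (13341) were fitted with limma 3.58.1 (R 4.3.3, lmFit and eBayes, two-sided, Benjamini-Hochberg over all of them). The fit was tested on simulated data. The number of arrays limits the precision. Slides were not tested, since no source used here names them.

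Probes were named from the platform annotation, which pairs 23978 probes with a symbol and leaves 1719 unnamed here; the symbols of all 10 member probes matched RefSeq by gene number. Lists used the brightest tested probe of a gene. Correlations between genes over mice used permutation tests (100000 resamples, two-sided, scipy 1.17.1), which shuffled all mice without regard to genotype. Named genes are all members, up to 4 genes of smallest p in each list, and the 5 genes closest in pattern. Named outside this rule are Slc13a5, the deleted gene, Slc18a1, a marker not above background, and the chromaffin markers Th, Dbh, Pnmt and Chgb. Genes, lists and tests were chosen with earlier results of these data known. Alternatives were quantile normalization, neqc, the deposited Z scores, no detection filter, detection p under 0.01, either array of WT replicate 1 alone, array quality weights, the replicate number as a block, a trend in intensity, the chromaffin marker mean as a covariate, all probes of a gene averaged, and leaving out each mouse. Figures were drawn with matplotlib 3.10.9.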

Additional observations from a re-analysis of the deposited data

Results flagged for a closer look

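Among 20 groups of 5 values checked for a mouse far from the others (9 member probes and the median over the member genes, in each genotype), 1 was found, and chance gives about 1 in 20. Rab3a in WT replicate 1 was at 2.29, with the next WT mouse at 2.47, and this gap was 0.73 of the range of the WT group, over the limit of 0.71 for 5 values. The 2 arrays of this mouse differed by 0.03 for Rab3a. Without it, the log2 fold change of Rab3a, mINDY-KO over WT, was 0.02 (adjusted p = 0.983, limma).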

How the results depend on the processing

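No member probe passed an adjusted p of 0.05 under any of the 22 alternatives run with a test, among them quantile normalization, neqc and each mouse left out, and each of the 9 probes kept its sign under all of them. The smallest adjusted p was 0.190, for Stx1a without WT replicate 3. The median over the member genes ranged from -0.21 to -0.09 over 23 alternatives. The count of 3 probes lower at an unadjusted p under 0.05 was 1 with neqc, 1 with the chromaffin marker mean as a covariate, 0 without mINDY-KO replicates 3 and 4 (chosen after seeing the data), and 1 to 6 with a mouse left out. Over all probes, 2 passed in the fit reported, against 0 with neqc, 1 with the deposited Z scores, 0 without a detection filter, 1 with the replicate number as a block, 6 with an intensity trend, 7 with the chromaffin covariate, 0 without mINDY-KO replicates 3 and 4, and 0 to 14 with a mouse left out, the 14 without mINDY-KO replicate 2. The cause was not tested. Same-numbered mice of the genotypes did not vary together (r of -0.30 to -0.11 between their deviations), and the fit reported did not pair them. The labels name no litters, so that pairing by litter was not tested. With the block, 0 member probes passed and the median was -0.16. With 5 mice a group, standard errors of the member values were 0.075 to 0.110, and the Snap25 probe was not above background.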
